A study of Mus musculus with 10 samples.

Results

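The genes described here build and run the cilium, namely 7 subunits of the BBSome, 4 genes for its assembly and recruitment, 8 subunits of intraflagellar transport complex B (IFT-B), 3 genes of IFT-A and its adaptor, 2 kinesin-2 motor genes and 8 genes of the transition zone and connecting cilium. The members were picked by symbol from a named list and not by a threshold on occupancy, although earlier results of these data were known when the list was made, and all 32 were found among the 20044 symbols of the deposited table. Where a symbol had more than 1 entry, that of the largest total in the 8 libraries was kept. Of the 7 members with such entries, 6 had entries that differed by at most 1 in every library. The other was Ahi1, whose second entry was at an H3K4me2 occupancy of 3, 2, 0 and 2 at the 4 stages and was not used.

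The study followed H3K4me2, a histone modification of active and poised promoters, and H3K27me3, a modification laid down by the Polycomb machinery at repressed genes, during maturation of the mouse retina. Chromatin of whole retinas, at least 20 for each stage, was collected before birth (E17.5, in embryonic days) and on postnatal days 1, 7 and 15 (named PN1, PN7 and PN15), digested with micrococcal nuclease, immunoprecipitated and sequenced (ChIP-Seq). There was 1 library for each mark and stage, so no difference between stages has a replicate, and no test between stages was possible. The unit is normalized occupancy, which the authors obtained from the reads around the transcription start site (TSS, 2.5 kb to either side) by scaling each library to its mapped reads and rounding.

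The methods describe C57BL/6j mice as the wild type, whereas the sample labels name the Pde6b rd1/rd1 mutant as the strain of every library, including those treated by the study as wild type. The methods give 1 catalogue number for each antibody, whereas the labels give both numbers for each. As a check of the tissue, Pax6, Six3, Thy1 and Grm6, genes of retinal cells, had H3K4me2 above background at every stage, and 0 of 5 genes of other tissues (Alb, Ins2, Hbb-b1, Il4 and Krt5) did. A retina holds many cell types, so a change in their proportions and a change within a cell type cannot be told apart in these libraries.

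The cilium is a microtubule-based extension of the cell surface, and the light-sensing outer segment of a photoreceptor is a modified cilium joined to the cell body through a narrow connecting cilium. Intraflagellar transport carries cargo along its microtubules, outward with IFT-B and kinesin-2 and back with IFT-A and dynein. The BBSome is a coat that moves membrane proteins in and out of the cilium, and the transition zone is the gate at its base. Inherited loss of some of these genes is known from Bardet-Biedl syndrome, Joubert syndrome, Leber congenital amaurosis and X-linked retinitis pigmentosa, which affect the retina.

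The promoters of these genes are shown at a motif that a larger share of the members than of all promoters held. The X-box is the binding motif of the RFX factors, known regulators of ciliary genes, and was searched on both strands as the arms GTNNCC and GNAAC with 3 bases between them. It was found in 6 of the 28 members with a RefSeq promoter window of 250 bases before to 50 bases after the TSS (21.4%), in 2.23% of the windows of 13966 symbols, and in 2.77% of those of 9176 symbols with H3K4me2. A gap of 2 bases gave 3 members (10.7%, and 209 of all 13966 windows) and a gap of 4 bases gave 1 (3.57%, and 0.845%). The windows were taken from RefSeq (GRCm38.p6) and each matched mm9 once. The X-box matched on the strand of the gene in Bbs4, on the opposite strand in Bbs1 and Ift57, and on both in Bbs7, Mks1 and Ahi1. The stretches below are in mm9, written 5′ to 3′ on the strand of the gene, with the X-box in capitals:

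Bbs7 (chr3:36512411-36512440, minus strand): gcgccccgGTTGCCTTGGAAACcggccagc
Ift57 (chr16:49699312-49699341, plus strand): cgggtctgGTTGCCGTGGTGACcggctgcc
Mks1 (chr11:87666685-87666714, plus strand): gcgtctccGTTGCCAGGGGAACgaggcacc
Bbs1 (chr19:4906605-4906634, minus strand): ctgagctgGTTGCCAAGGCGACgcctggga
Bbs4 (chr9:59201271-59201300, minus strand): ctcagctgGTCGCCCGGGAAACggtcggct
Ahi1 (chr10:20672366-20672395, plus strand): tagtctgaGTTACCTAGGCAACagcggcag

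The motif began 121, 87 and 24 bases upstream of the TSS in Bbs7, Ift57 and Mks1, and 1, 23 and 21 bases downstream of it in Bbs1, Bbs4 and Ahi1. Bbs1, Bbs4 and Bbs7 encode BBSome subunits, Ift57 an IFT-B subunit, and Mks1 and Ahi1 components of the transition zone. In the comparison genes the X-box was in 5 of 34 windows of other primary cilium genes, in 4 of 14 of motile cilium genes, and in 0 of 9 of rod genes (outer segment proteins and the rod transcription factors Nrl, Nr2e3 and Crx). The core of the motif of CRX, the homeobox factor of photoreceptors (TAATCC, both strands), was in 1 of the 28 member windows, that of Bbs1, in 6.23% of all windows and in 4 of 9 windows of rod genes. The core of the NRF1 motif (GCGCATG, both strands) was in 2 member windows, those of Mkks and Kif3a, and in 5.17% of all windows. A match is a run of letters and not a measured site of binding.

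The member windows were rich in CpG. The ratio of observed to expected CpG had a median of 0.79 over the members and 0.621 over all windows, and was at least 0.6 in 26 of 28 members (92.9%) and 51.9% of all windows. Among symbols with H3K4me2 the share was 75.2%. Rod genes had a median of 0.235, and none of their 9 windows reached 0.6. Bbs4, at 0.556, and Nphp4, at 0.277, were the members below it. Nphp4 has several RefSeq windows, and the one used was at the start of the annotated gene, 1436 bases from the start of its nearest protein-coding transcript, the largest such distance among the members.

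Of the 32 members, 10 (31.2%) had the TSS of another protein-coding gene within 2.5 kb, compared with 14.8% of 22380 protein-coding genes. In 8 of them the neighbour lay head to head, as with Bbs12 and Cetn4, Mkks and 2210009G21Rik, Ift20 and Tnfaip1, Ift80 and Smc4, Ift122 and Mbd4, Ift140 and Cramp1l, Cep290 and Tmtc3, and Iqcb1 and Eaf2. The others were Nphp4, beside Kcnab2, and Tmem67, beside C430048L16Rik. The share of head to head neighbours over all protein-coding genes was not counted. The occupancy of these 10 windows is shared with the neighbour and cannot be divided between the genes. At PN15 their median H3K4me2 was 101 (range 67 to 169), against 70.5 (36 to 102) for the other 22. This division was made after the values were seen.

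H3K4me2 accumulated at every member at every stage. As background, the 99th percentile of 1403 entries of olfactory and vomeronasal receptor genes, known from sensory neurons of the nose, was taken in each library, and was 6, 9, 1 and 9 in order of stage. All 32 members lay above it in all 4 stages, as did 65.3% of all symbols. Against the largest receptor value, a stricter limit of 15 to 32, 20 members remained. The 12 that did not were Bbs1, Bbs2, Bbs5, Bbs7, Ttc8, Bbs10, Bbs12, Mkks, Kif17, Rpgr, Ahi1 and Mks1.

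**Figure D1:**
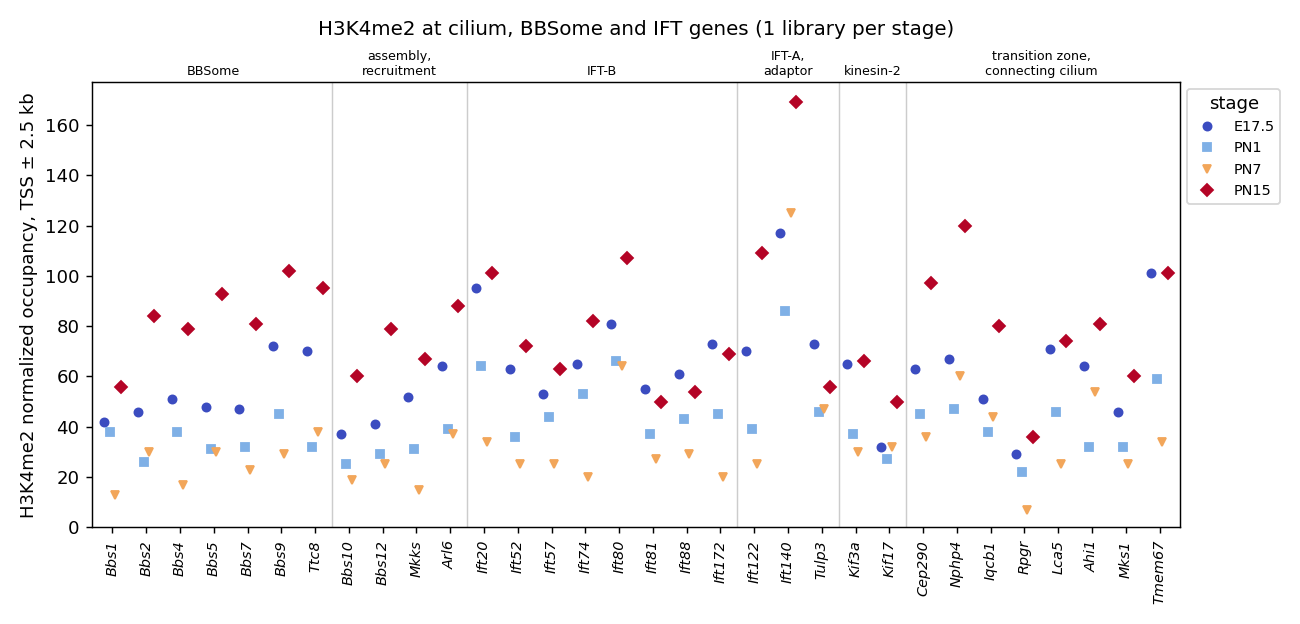
H3K4me2 normalized occupancy within 2.5 kb of the TSS (vertical axis) of each of the 32 members (horizontal axis, grouped by complex), with 1 point for each stage. Every member lay above the receptor background of 1 to 9, and Ift140 was highest and Rpgr lowest at PN15, at 169 and 36.

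The median occupancy of the members was 63, 38, 29 and 79.5 over the 4 stages, beside 41, 27, 24 and 42 for all symbols and 57, 39, 36 and 67 for symbols with H3K4me2. The members were thus above the symbols with H3K4me2 at E17.5 and PN15 and below them at PN1 and PN7. Ranked within its library, the median member stood at percentile 72.9, 65.1, 57.0 and 76.3, and the median symbol with H3K4me2 at 66.7, 66.5, 67.0 and 67.1. The PN7 library stood apart from the others, with a receptor median of 0 (2 to 4 in the others) and log2 changes of the median symbol of -0.50 into it and 1.0 out of it. Changes are therefore given as log2 ratios with a pseudocount of 1, relative to the median symbol, and are called at 2-fold or more. By rank, PN7 was the lowest stage for 20 of 32 members (27.4% of all symbols and 34.1% of those with H3K4me2). PN15 was the highest for 16 (26.4% and 25.9%).

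Between E17.5 and PN15 no member changed by 2-fold. The median change was 0.27 on the log2 scale (range -0.51 to 0.81), and 24 of 32 members were above 0, as were 10018 of the 20044 symbols. None was called higher, beside 5.17% of all symbols (2.51% of those with H3K4me2), and none lower, beside 12.8% (6.26%). Intervals that cover counting error only (95%, with 1 unit of occupancy taken as 1 read) lay above the median symbol for 8 members, Bbs2, Bbs5, Bbs7, Bbs12, Ift122, Ift140, Cep290 and Nphp4, and below it for none. The same held for 10.9% of all symbols above it (15.6% of those with H3K4me2) and 10.5% below it. Among the 8 members, Bbs12, Ift122, Ift140, Cep290 and Nphp4 have windows shared with a neighbouring gene.

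**Figure D2:**
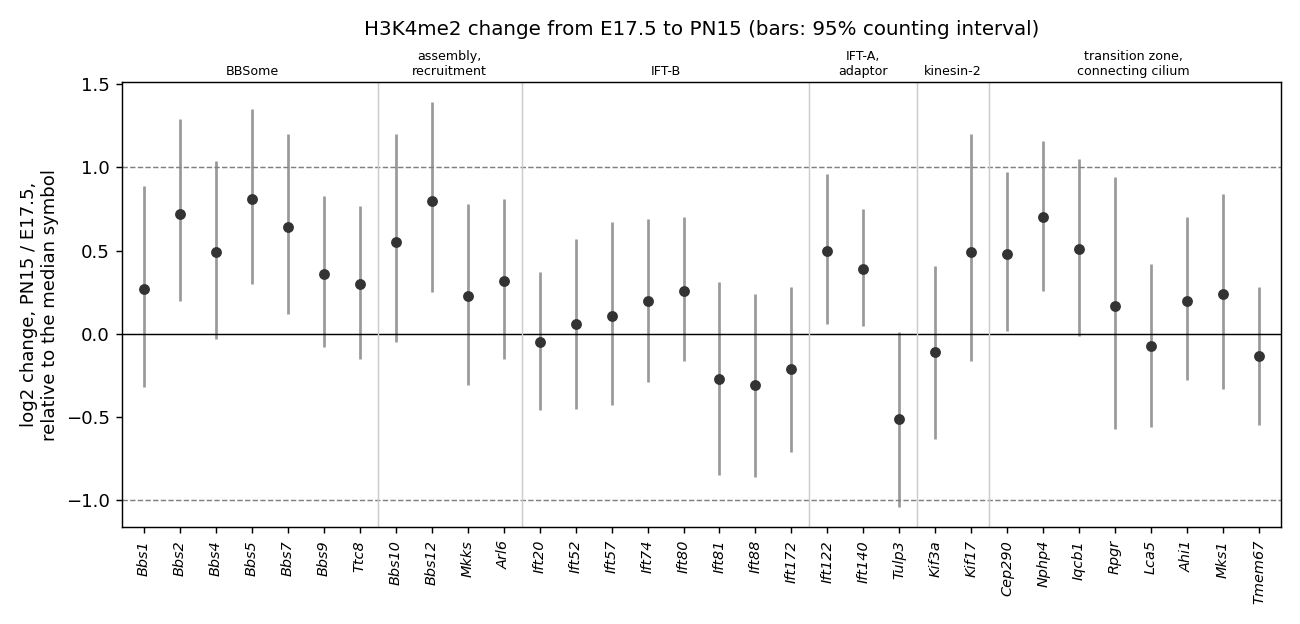
Log2 change of H3K4me2 from E17.5 to PN15 relative to the median symbol (vertical axis) for each member, with bars for the 95% counting interval and dashed lines at 2-fold. All 32 points lie between -0.51 and 0.81, and the 7 BBSome subunits and 4 assembly and recruitment genes are all above 0.

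All 7 BBSome subunits were above 0 between E17.5 and PN15, with a median of 0.49, 3 of them with an interval that excluded 0, and their median occupancy was 48, 32, 29 and 84 at the 4 stages. Bbs5, which encodes a lipid-binding subunit, was at 48, 31, 30 and 93 and had the largest change, 0.81 (0.30 to 1.35). Bbs2 was at 46, 26, 30 and 84, a change of 0.72 (0.20 to 1.29). Bbs7 was at 47, 32, 23 and 81, a change of 0.64 (0.12 to 1.20). These 3 subunits thus had intervals above the median symbol. They were highest at PN15, as were 27 of the members, 47.9% of all symbols and 61.6% of those with H3K4me2.

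Bbs9, which encodes a scaffold subunit, had the most H3K4me2 of the complex at PN15, with 72, 45, 29 and 102 at the 4 stages. Ttc8, also known as Bbs8, was at 70, 32, 38 and 95. Their changes, 0.36 and 0.30, had intervals that included 0. Bbs1, the subunit most often altered in Bardet-Biedl syndrome, was the lowest of the complex at PN15, at 42, 38, 13 and 56, a change of 0.27 (-0.32 to 0.89). Bbs4 was at 51, 38, 17 and 79, a change of 0.49 (-0.03 to 1.04). Neither was told apart from the median symbol over the whole course. Both were called higher from PN7 to PN15, beside 15.9% of all symbols, by 1.03 (0.22 to 2.10) for Bbs1 and by 1.15 (0.45 to 2.07) for Bbs4. From PN1 to PN7 Bbs1 had changed by -0.98 (-2.08 to -0.11). From PN1 to PN15 Bbs1 was at 0.04 and Bbs4 at 0.53, and neither was called.

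The 4 genes of BBSome assembly and recruitment were also all above 0, with a median of 0.43. Bbs12, a chaperonin-like gene, was at 41, 29, 25 and 79, a change of 0.80 (0.25 to 1.39). Bbs10, another chaperonin-like gene, was among the 3 lowest members at E17.5, at 37, 25, 19 and 60, and changed by 0.55 (-0.05 to 1.20). Mkks, the third of this kind, was at 52, 31, 15 and 67. Only Bbs12 of these had an interval above the median symbol, in a window shared with Cetn4. Arl6, the small GTPase that brings the BBSome to membranes, was the highest of the group at PN15, at 64, 39, 37 and 88.

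The IFT-B genes were divided in direction, with 4 of 8 above 0 and a median of 0.01. Their median occupancy was 64, 44.5, 26 and 70.5. Ift80, with 81, 66, 64 and 107, was the highest of them at PN15, and Ift20, the subunit also found at the Golgi, was at 95, 64, 34 and 101. Both of these windows are shared with a head to head neighbour. Ift81, which binds tubulin, was at 55, 37, 27 and 50, the lowest of them at PN15.

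Ift88, whose loss disturbs outer segment formation in mice, was at 61, 43, 29 and 54. Ift172 was at 73, 45, 20 and 69. Ift81, Ift88 and Ift172 changed by -0.27, -0.31 and -0.21, each with an interval that included 0. The other 3, Ift52, Ift57 and Ift74, lay between 63 and 82 at PN15, and their changes were 0.06 to 0.20. No IFT-B gene was thus told apart from the median symbol over the whole course.

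Among the IFT-A genes and the adaptor, Ift140 was the highest member in every H3K4me2 library, at 117, 86, 125 and 169, within the top 1 percent of symbols (percentile 99.1 to 99.4). It lies at chr17:25153036-25236440 in mm9, and its TSS is 856 bases from that of Cramp1l. Its change was 0.39 (0.05 to 0.75). Ift122, whose window is shared with Mbd4, was at 70, 39, 25 and 109, and its change was 0.50 (0.06 to 0.96). The adaptor Tulp3, which links IFT-A to the entry of receptors, was at 73, 46, 47 and 56, the most negative change of all members at -0.51 (-1.04 to 0.01).

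Both motor genes had H3K4me2. Kif3a, a subunit of heterotrimeric kinesin-2, was at 65, 37, 30 and 66, a change of -0.11 (-0.63 to 0.41). Kif17, the homodimeric kinesin-2, was at 32, 27, 32 and 50, among the 3 lowest members at E17.5 and PN15, with a change of 0.49 (-0.16 to 1.20).

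The genes of the transition zone and connecting cilium ranged from 36 to 120 at PN15, and 6 of 8 were above 0 (median 0.22). Nphp4, a nephrocystin of the transition zone, was at 67, 47, 60 and 120, a change of 0.70 (0.26 to 1.16). Cep290, a frequent gene of Leber congenital amaurosis, was at 63, 45, 36 and 97, a change of 0.48 (0.02 to 0.97). Tmem67, a membrane protein of the transition zone, was at 101, 59, 34 and 101. Nphp4 was the second highest member at PN15, and Tmem67 had the same value at both ends of the course.

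Rpgr, the gene of X-linked retinitis pigmentosa (chrX:9650747-9794046), was the lowest member in every H3K4me2 library, at 29, 22, 7 and 36. At PN7 its value of 7 had a counting interval of 2.81 to 14.4, against a receptor background of 1 and a largest receptor value of 15. Iqcb1, which encodes a partner of Cep290, was at 51, 38, 44 and 80. Ahi1, the Joubert syndrome gene, was at 64, 32, 54 and 81. Lca5 and Mks1 were at 74 and 60 at PN15 and changed by -0.07 and 0.24. Of the 8 genes, Cep290 and Nphp4 had intervals above the median symbol, both in windows shared with a neighbouring gene.

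From PN1 to PN7 the median member changed by 0.09, with 2 called higher (13.7% of all symbols and 20% of those with H3K4me2 were), Ift140 by 1.03 (0.63 to 1.45) and Ahi1 by 1.24 (0.60 to 1.93), and 1 called lower (26.6% and 3.17% were), Rpgr by -1.02 (-2.62 to 0.13). The median of symbols with H3K4me2 was itself 0.41 above that of all symbols over this step, and centred on it 0 members were higher and 5 lower, beside 5.20% and 32.3% of all symbols. The direction of the members over this step thus depends on the centring. Relative to all symbols, intervals lay below the median symbol for Bbs1 (-0.98) and Ift74 (-0.86). They lay above it for Ttc8, Ift140, Nphp4, Iqcb1 and Ahi1. The share of all symbols with such intervals was not counted for this step.

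From PN7 to PN15 the median member changed by 0.47, and 23 of 32 were above 0, beside 46.4% of all symbols. The 5 called higher, beside 15.9% of all symbols and 4.89% of those with H3K4me2, were Bbs1, Bbs4, Mkks (1.09), Ift122 (1.08) and Rpgr (1.21). None was called lower, beside 17.1% and 17.2%. Ift140, at -0.57, and Tulp3, at -0.75, had intervals below the median symbol, and 10 members had intervals above it, beside 19.5% and 8.90% of all symbols. Since both steps use the PN7 library, their values are not independent.

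Passing over PN7, an alternative added after the data were seen, the change from PN1 to PN15 had a median of 0.47 with 29 of 32 members above 0, beside 10021 of the 20044 symbols and 66.8% of those with H3K4me2. The 3 called higher, beside 4.52% of all symbols and 5% of those with H3K4me2, were the BBSome subunits Bbs2 (1.15), Bbs5 (1.05) and Ttc8 (1.04). None was called lower, beside 19.4% and 4.36%. Relative to the median of symbols with H3K4me2, which lay 0.22 higher, these 3 were at 0.93, 0.83 and 0.82, 0 members were called, and 21 of the 32 were above 0, beside 49.9% of symbols with H3K4me2. The 5 genes called higher from PN7 to PN15 were not called from PN1 to PN15. Ift122 was at 0.96, Mkks at 0.58 and Bbs4 at 0.53, whereas Rpgr was at 0.18 and Bbs1 at 0.04.

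H3K27me3 was at background at nearly every member. The receptor background was higher for this mark, 32 before birth and 39 in the 3 later libraries. The paper reported H3K27me3 at a small part of the olfactory receptor genes, so this limit may be high. In at least 1 stage 1 member, Kif17, lay above it (3.12%), beside 21.0% of all symbols. The median member was at 9, 7, 5.5 and 7.5, beside 11, 10, 9 and 10 for all symbols, and at percentile 41.1, 31.6, 26.7 and 29.8. With the 95th percentile of the receptors as the limit, Bbs2, Ift88, Tulp3 and Nphp4 joined Kif17, and with the largest receptor value no member remained.

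**Figure D3:**
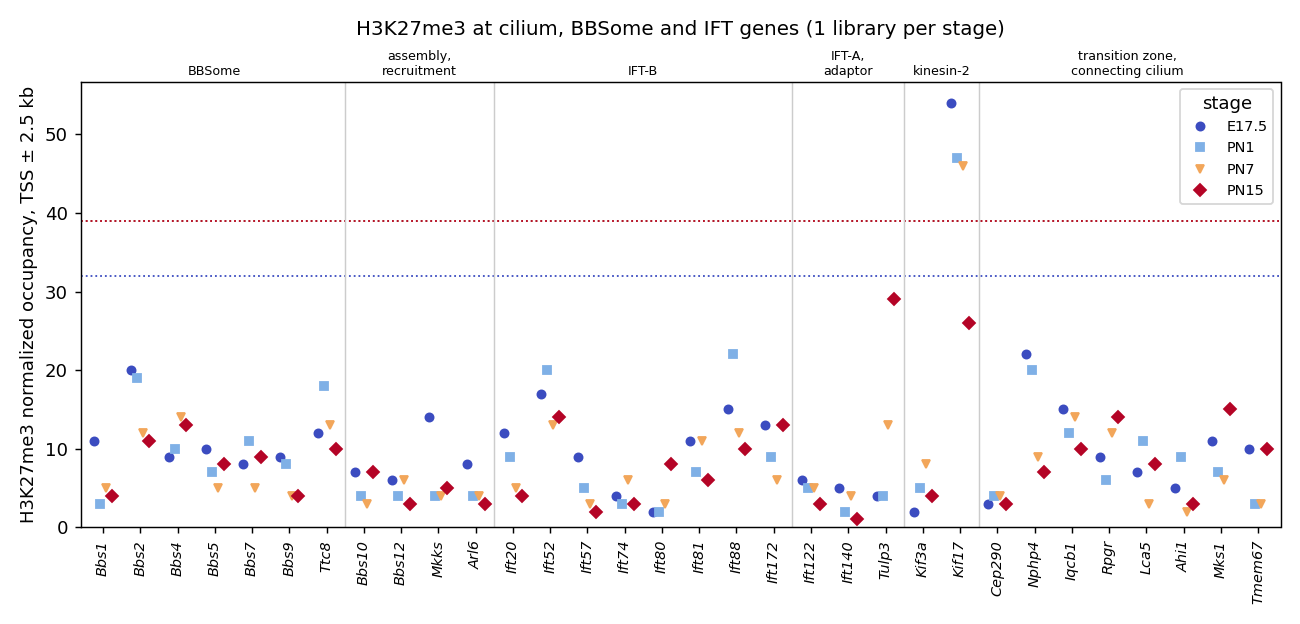
H3K27me3 normalized occupancy within 2.5 kb of the TSS (vertical axis) of each member, with dotted lines at the receptor background (32 at E17.5, 39 at the later stages). Kif17 lies above the lines at E17.5, PN1 and PN7, and Tulp3 at PN15 is the highest of the other values at 29.

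Kif17 (chr4:137806350-137857882) had both marks through PN7. Its H3K27me3 was 54, 47, 46 and 26, so that it was above the background at the first 3 stages and below it at PN15. The change from E17.5 to PN15 was -1.03 (-1.79 to -0.35). It was the only member eligible for a call in this mark, and was called lower, as were 38.0% of the 3966 symbols above background at either end. Higher calls stood at 9.98% of those symbols and 0 of the members. The change of Kif17 fell short of 2-fold with a pseudocount of 5, at -0.93, when centred on symbols with H3K4me2, at -0.79, and with a filter on low sums, at -0.91. It remained at -1.03 without centring.

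Tulp3 (chr6:128271158-128305869) showed the opposite course, with H3K27me3 of 4, 4, 13 and 29. The log2 change was 2.58 (1.35 to 4.83). Its PN15 value stayed under the receptor background of 39 but lay above the 95th percentile of the receptors, 27. It is the same gene that had the most negative change in H3K4me2. At Nphp4 (chr4:151850815-151937292) H3K27me3 was 22, 20, 9 and 7, a change of -1.52 (-3.12 to -0.37), below background at every stage. Its E17.5 value lay above the 95th percentile of the receptors, 19. At no other member did the counting interval exclude the median symbol, so that 1 of 32 lay above it, beside 7.23% of all symbols, and 2 lay below it, beside 14.1%. These shares are no larger among the members than among all symbols.

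**Figure D4:**
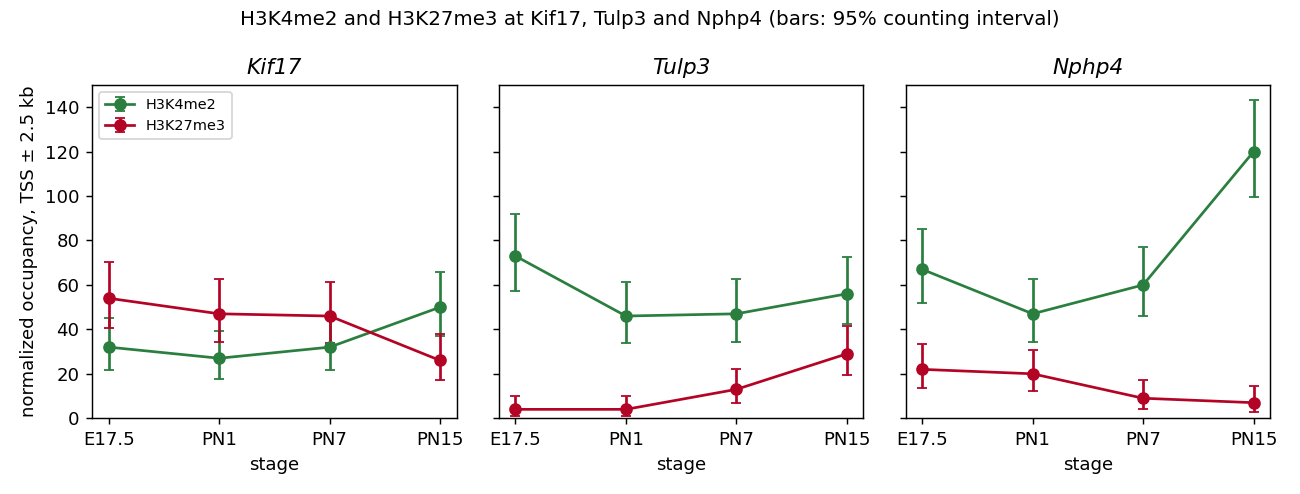
Normalized occupancy (vertical axis) of H3K4me2 and H3K27me3 at Kif17, Tulp3 and Nphp4 by stage (horizontal axis), with bars for the 95% Poisson counting interval. H3K27me3 went from 54 to 26 at Kif17, from 4 to 29 at Tulp3 and from 22 to 7 at Nphp4.

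Other genes of the cilium were set beside the members. Of 44 other primary cilium genes (further IFT, dynein-2, tectonic and nephrocystin genes), all 44 had H3K4me2 above background at all 4 stages. The median change from E17.5 to PN15 was 0.22, and 2 were called higher and 0 lower, beside 5.17% and 12.8% of all symbols. Their median occupancy, 56, 36.5, 29.5 and 70.5, followed that of the members. H3K27me3 was above background in 2 of them. Cc2d2a, a transition zone gene, had the largest of these changes with H3K4me2 of 42, 42, 24 and 124.

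Genes of cilium structures particular to photoreceptors had a different course. Of 6, 5 were called higher from E17.5 to PN15, beside 5.17% of all symbols, with a median change of 2.19. Rpgrip1, which anchors Rpgr at the connecting cilium, was at 13, 8, 6 and 75. Rp1, of the outer segment axoneme, was at 14, 8, 4 and 70. Both started below every member and ended within the range of the members.

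Tulp1, the photoreceptor relative of Tulp3, was at 22, 20, 52 and 81 in H3K4me2 and at 273, 340, 106 and 49 in H3K27me3. Its H3K27me3 was thus above background at all 4 stages and was lower at PN15, where that of Tulp3 was higher than at E17.5. The rod genes, outer segment and transcription factor genes together, were called higher in 14 of 14, beside 5.17% of all symbols, with a median of 2.82. Sag, rod arrestin, was at 9, 15, 16 and 53.

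Motile cilium genes, for dynein arms and radial spokes that photoreceptors are not known to use, were above the H3K4me2 background at all stages in 16 of 21. Their median change was -0.38, with 0 called higher and 6 lower, beside 5.17% and 12.8% of all symbols. Foxj1, the transcription factor of motile cilia, was at 63, 49, 48 and 59 in H3K4me2 and at 50, 79, 21 and 20 in H3K27me3. All these lists were chosen by name, and none of the differences between them was tested.

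**Figure D5:**
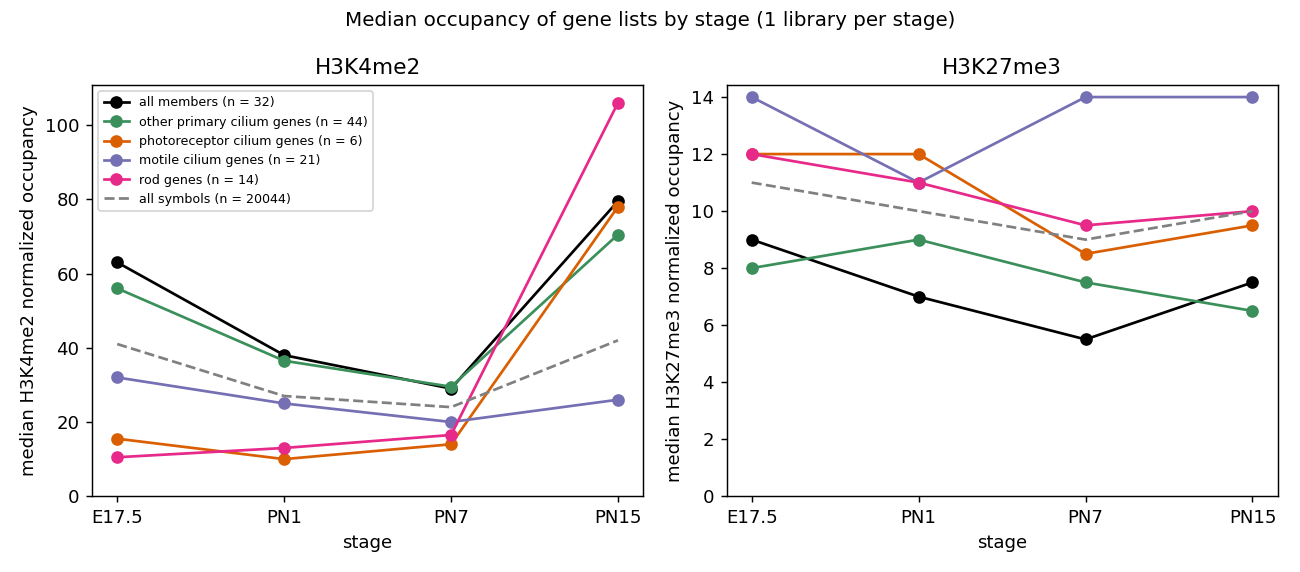
Median normalized occupancy (vertical axes) of H3K4me2 (left) and H3K27me3 (right) by stage for the 32 members, 4 comparison lists and all symbols. The members stood at 63 at E17.5 and 79.5 at PN15 for H3K4me2, whereas the rod genes went from 10.5 to 106.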

How the data were processed

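The deposited table holds 25152 gene entries and 8 columns. Its values are scores, which the authors made by mapping reads with Bowtie 0.12.4 to mm9, removing reads with several positions, assuming a 190 bp fragment, summing reads within 2.5 kb of each RefSeq TSS, normalizing to total mapped reads and rounding. They are not counts, and the raw depth is unknown. No whole number below 110 to 347 is missing from a library, so 1 read was worth at most about 1 unit. Exact Poisson and Clopper-Pearson intervals (95%) took 1 unit as 1 read and cover counting error only. The rd1/rd1 PN30 and anti-GFP samples were not analysed here, so receptor genes gave the background. Eligibility for an H3K27me3 call required a value above background at either stage.

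Members called in a main comparison, above background in H3K27me3, among the 3 highest or lowest in H3K4me2 at E17.5 or PN15, or highest or lowest of their complex (at PN15) were named with their values, and others were added after their values were seen. Some genes of the comparison lists are not reported here. The members and lists were chosen with earlier results of these data known. Alternatives were other pseudocounts, centrings, entries, filters, limits and motif gaps. The calls and the motif search were tested on simulated data. Python 3.11.15, numpy 2.4.6, pandas 2.3.3, scipy 1.17.1 and matplotlib 3.10.9 were used. RefSeq windows were used for 28 members, and Ift122, Ift80, Tmem67 and Ift81 had none.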

Additional observations from a re-analysis of the deposited data

How the results depend on the processing

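With 1 library for each mark and stage no replicate could be left out, and no paired analysis was possible because each mark and stage has 1 library. Counts of called members depended on the limit and the centring. At a 1.5-fold limit, 5 members were higher from E17.5 to PN15 (14.3% of all symbols), 7 were higher and 5 lower from PN1 to PN7 (27.3% and 32.4%), and 12 were higher and 1 lower from PN7 to PN15 (22.0% and 27%). Without centring, the member medians were 0.40 (E17.5 to PN15), -0.41 (PN1 to PN7) and 1.47 (PN7 to PN15), with 0 higher and 6 lower from PN1 to PN7 (4.09% and 36.8% of all symbols) and 23 higher from PN7 to PN15 (52.3%), where the shift of the libraries is included. Centred on symbols with H3K4me2, the medians were -0.32 (PN1 to PN7) and 0.66 (PN7 to PN15), with 0 higher and 5 lower from PN1 to PN7 (5.20% and 32.3% of all symbols), and -0.19 for H3K27me3 from E17.5 to PN15 (-0.43 as centred on all symbols), with 0 lower. With a sum of at least 20, they were -0.32 and 0.66, with 0 higher and 5 lower from PN1 to PN7, and 0 lower in H3K27me3. A pseudocount of 5 gave 0.68 for PN7 to PN15, 1 higher and 0 lower from PN1 to PN7 (9.18% and 3.63% of all symbols), and 0 lower in H3K27me3. Members above the receptor background in H3K27me3 were 5 with the 95th percentile and 0 with the largest value, and those above it in H3K4me2 were 20 with the largest value. With PN1 in place of PN7 as the earlier stage, chosen after seeing the data, 3 members were higher at PN15, and 0 (median 0.25) when also centred on symbols with H3K4me2. The X-box was found in 3 members with a gap of 2 and in 1 with a gap of 4. The PN1 to PN7 median thus turned from 0.09 to below 0 under 3 of these settings. With PN1 in place of PN7, none of the 5 members called from PN7 to PN15 was called. When also centred on symbols with H3K4me2, Bbs1 was at -0.17 and Rpgr at -0.04, below 0. Under the other pseudocount, centrings, entries and filter no called member changed sign, and the 5 calls from PN7 to PN15 held. The calls of Ift140 (0.53 to 0.90), Ahi1 (0.74 to 0.83) and Rpgr (-0.79) from PN1 to PN7 were lost under 4, 3 and 1 of these settings, and that of Kif17 in H3K27me3 (-0.93 to -0.79) under 3. Causes were not tested. Rounding to whole numbers limits values below about 10, which include most H3K27me3 values of the members.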
